A study of Mus musculus with 19 samples.

Results

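Transcripts of 10 adhesion genes were followed in sorted CD4 T cells: the integrin beta chains Itgb1, Itgb2 and Itgb7, the alpha chains Itga4, Itga6, Itgal, Itgav and Itgae, and the immunoglobulin-family molecules Icam2 and Pecam1 (CD31). They were taken from the array files by gene name, as 10 of the 35019 gene names on the array, and they were measured by 16 probes. The set was chosen by measured values: earlier results of these data, from the same contrasts of regulatory T cells (Treg) with conventional cells, showed Itgb1 and Pecam1 lower in Treg, so the members' Treg differences, with their standard errors, intervals and calls, are given below as a description and count as no test. Of the 10 genes, 9 passed the filter on dim probes (a probe well above background on at least 4 of 19 arrays), and Itgae, detected on 3 arrays, did not.

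Spleen and lymph nodes of adult C57Bl/6 females supplied the cells. All mice had the genotype Tg IL-2-GFP x FOXP3mRFP, so both reporters were present in every group. Green fluorescence reported IL-2, the T cell growth factor, and red fluorescence reported Foxp3, the transcription factor of Treg. The groups were conventional cells lacking both signals (GFP-RFP-, n = 5), conventional cells with green signal alone (GFP+RFP-, n = 5), Treg with red signal alone (GFP-RFP+, n = 5) and Treg with both (GFP+RFP+, n = 4, replicates 1, 3, 4 and 5). The series title poses the question of how regulatory and IL-2-producing CD4 cells relate. A cell type tag calls all samples conventional, whereas the subtype tag calls the RFP+ samples regulatory, and grouping here was by colour. Nothing in the labels says that replicates are separate animals, so the p-values cover only sample-to-sample spread, which could be purely technical.

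Integrins are heterodimers of an alpha and a beta chain that anchor cells to matrix or to other cells. On T cells, Itgal pairs with Itgb2 as LFA-1, which binds the ICAM family, while Itga4 pairs with Itgb1 as VLA-4, a VCAM-1 and fibronectin receptor, or with Itgb7 for entry into gut tissue. Itgae also pairs with Itgb7 and binds E-cadherin on epithelium, Itga6 with Itgb1 binds laminin, and Itgav chains bind matrix proteins and can activate latent TGF-beta. Talin and kindlin bind the short cytoplasmic tails of the beta chains and switch the receptor to its active form. Pecam1 binds itself on a neighbouring cell and carries inhibitory motifs in its tail, and it is known from naive T cells, platelets, myeloid cells and endothelium.

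The probes of Itgb1 and Pecam1 are shown because the largest differences rest on them. The first Itgb1 sequence gave the values used and lies on the plus strand at chr8:131246349-131246408 (mm9, as in the files). The further Itgb1 probe is given at chr8:131250081-131255976 on the plus strand, a span of 5896 bases for a probe of 60 bases, so it matches the genome in more than 1 block. Its capitals mark the 2 matches of a motif, AATCC followed by any 4 letters and TA, which was searched because it can encode the NPxY signals of beta chain tails where talin and kindlin bind. The Pecam1 probe was printed on 2 spots and lies on the minus strand at chr11:106540864-106540923 (mm9). The files do not say in which exon or UTR a probe lies.
Itgb1 probe used: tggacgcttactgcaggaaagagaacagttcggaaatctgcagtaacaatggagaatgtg
Itgb1 further probe: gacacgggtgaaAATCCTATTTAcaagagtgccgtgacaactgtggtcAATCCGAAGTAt
Pecam1 probe: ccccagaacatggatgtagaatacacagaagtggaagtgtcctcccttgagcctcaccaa

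Of all 55681 probes, 145 (0.2604%) held this motif on the printed strand and 141 (0.2532%) on the opposite strand, and 2 held it 2 times on the printed strand. The match is a description of the letters and not evidence of binding.

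Levels are given as the log2 processed signal minus the array's 75th percentile, so 0 is as bright as that percentile and each unit is a doubling. "Detected" means well above background by the scanner software. The share of all probes detected averaged 40.6% ± 2.87 (SD, n = 5) without either signal, 36.88% ± 4.29 (n = 5) with green alone, 29.61% ± 6.78 (n = 5) with red alone and 32.23% ± 4.94 (n = 4) with both. Of 15 T cell identity genes, 11 to 15 were detected per array, and Cd4 and Cd3g were detected on all 19. The identity genes with the smallest limma p without the IL-2 reporter were detected on fewer Treg than conventional arrays. Trat1 was detected on 5, 5, 1 and 2 arrays of GFP-RFP-, GFP+RFP-, GFP-RFP+ and GFP+RFP+ cells, Cd28 on 5, 4, 1 and 3, and Cd247 on 5, 5, 3 and 1. Trat1 differed by -7.88 ± 2.17 (SE; limma adjusted p = 0.0685) and Cd28 by -6.32 ± 1.82 (SE; adjusted p = 0.0776) in Treg without the IL-2 reporter, and Cd247 by -8.06 ± 2.1 (SE; adjusted p = 0.103) in Treg with it. Of the 15, 10 had a lower and 5 a higher mean in Treg without the IL-2 reporter, and 9 a lower and 6 a higher mean with it. The median differences of the 15 were -0.1 and -0.36, against -0.29 and 0.22 over all genes. None of the 15 was called in any comparison, beside 1.7% and 0.204% of all genes in the 2 Treg comparisons. Foxp3, the reporter gene of the red signal, was detected on all 19 arrays at means of -7.89, -7.63, -5.35 and -6.13 in GFP-RFP-, GFP+RFP-, GFP-RFP+ and GFP+RFP+ cells, and no difference in it passed the test. Of the 6 Treg markers listed, 5 had a higher mean in Treg without the IL-2 reporter and 1, Ctla4, a lower one (-3.64 ± 1.98, SE). With it, 3 were higher and 3 lower. Of all genes, 57.1% and 44.1% had a lower mean. Gpr83 was called higher without the IL-2 reporter, at 6.83 ± 1.47 (SE) with a limma adjusted p of 0.0331, beside 0.47% of all genes. It was detected on 0, 1, 4 and 0 arrays in the same order, Ctla4 on 5, 5, 3 and 3 and Il2ra on 1, 1, 1 and 2. Il2, the reporter gene of the green signal, was detected on 2 of 5, 2 of 5, 0 of 5 and 1 of 4 arrays in the same order. In bulk RNA, fewer cells that express a gene and less of its RNA per cell cannot be told apart.

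**Figure D1:**
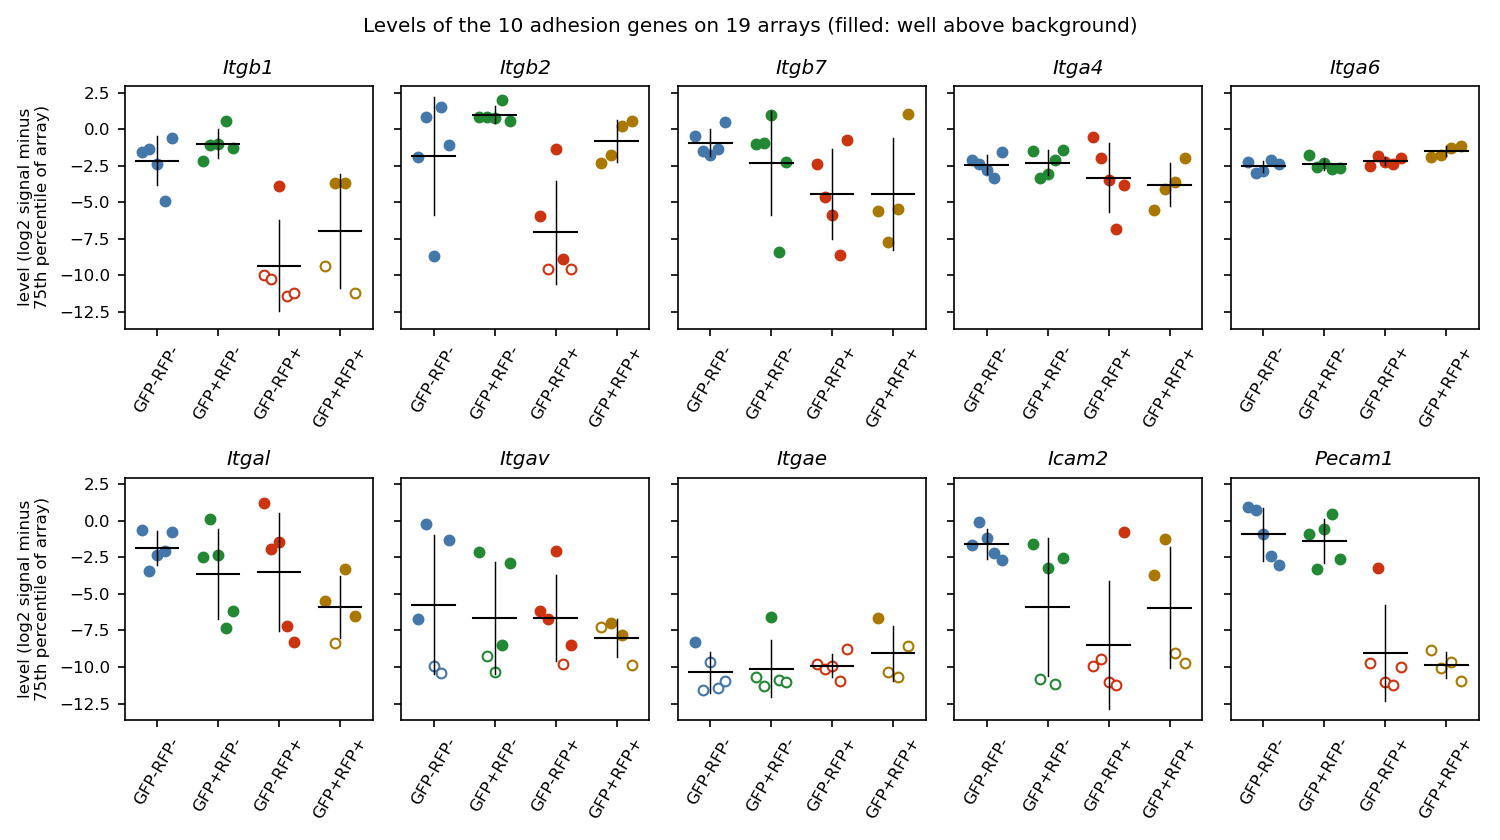
Level of each of the 10 genes on every array (vertical axis, log2 signal minus the array's 75th percentile) in the 4 reporter groups. Filled points are well above background and open points are not, with the mean as a horizontal line and the SD as a vertical line. Pecam1 and Itgb1 are filled on all 10 RFP- arrays and mostly open on the 9 RFP+ arrays, whereas Itga6 lies between -2.96 and -1.14 on all 19.

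Itgb1, the beta 1 chain shared by VLA-4 and the laminin receptor, was detected on all 10 RFP- arrays and on 3 of 9 RFP+ arrays. Its levels in GFP-RFP- cells were -1.54, -1.35, -2.36, -4.92 and -0.61, and in GFP+RFP- cells -2.19, -1.06, -1.02, 0.55 and -1.26. In GFP-RFP+ cells they were -9.98, -10.21, -3.9, -11.42 and -11.22, and in GFP+RFP+ cells -9.35, -3.67, -3.68 and -11.17. The detected RFP+ arrays were GFP-RFP+ replicate 3 and GFP+RFP+ replicates 3 and 4, and the other 6 lay at background. The mean was -7.19 ± 1.55 (SE) lower in GFP-RFP+ than in GFP-RFP- cells on the log2 scale, where GFP-RFP- replicate 4 lay below GFP-RFP+ replicate 3. Between GFP+RFP+ and GFP+RFP- cells the difference was -5.97 ± 1.64 (SE) and the groups did not overlap. The group order was GFP+RFP-, GFP-RFP-, GFP+RFP+ and GFP-RFP+, with overlapping ranges between each pair of neighbours.

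The further Itgb1 probe, which covers the tail motifs printed above, gave the same detection call as the first on 17 of 19 arrays. Its levels had a Pearson r of 0.86 with those of the first probe over the 19 arrays, which share groups and array quality. It was not detected on 2 arrays where the first probe was: GFP-RFP- replicate 4, at -10.18, and GFP+RFP+ replicate 3, at -10.6. Its Treg differences were -6.12 ± 2.23 (SE) without and -7.21 ± 2.37 (SE) with the IL-2 reporter.

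Itgb2, the beta chain of LFA-1, was detected on 17 of 19 arrays. Levels were -1.88, 0.85, -8.64, 1.52 and -1.05 in GFP-RFP- cells and 0.83, 0.81, 0.8, 1.98 and 0.55 in GFP+RFP- cells. In GFP-RFP+ cells they were -5.93, -9.53, -1.33, -8.87 and -9.57, and in GFP+RFP+ cells -2.29, -1.73, 0.25 and 0.58. The GFP-RFP- arrays spread over most of the scale because replicate 3 was dim, while all GFP+RFP- arrays were bright. The Treg difference was -5.21 ± 1.72 (SE) without the IL-2 reporter and -1.79 ± 1.83 (SE) with it, and the groups overlapped in both. GFP+RFP-, GFP+RFP+, GFP-RFP- and GFP-RFP+ was the order of the means, and neighbours overlapped.

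Itgb7, the beta chain of the gut-homing integrins, was detected on all 19 arrays. Its levels were -0.48, -1.48, -1.75, -1.36 and 0.49 in GFP-RFP- cells and -1.02, -0.91, 0.96, -8.38 and -2.21 in GFP+RFP- cells. In Treg they were -2.35, -4.6, -5.85, -8.63 and -0.76 without and -5.61, -7.68, -5.48 and 1.07 with the green signal. The brightest array of all was GFP+RFP+ replicate 5, at 1.07, although the other 3 of that group lay at -7.68 to -5.48. The Treg differences were -3.52 ± 1.81 (SE) and -2.11 ± 1.92 (SE) without and with the IL-2 reporter, with overlapping groups.

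Among the alpha chains, Itga6, the laminin-receptor chain, stayed in a band of 1.82 log2 units over all 19 arrays. GFP-RFP- levels were -2.26, -2.96, -2.88, -2.11 and -2.41, and GFP+RFP- levels -1.76, -2.61, -2.29, -2.7 and -2.64. GFP-RFP+ levels were -2.5, -1.8, -2.22, -2.41 and -1.99, and GFP+RFP+ levels -1.87, -1.73, -1.31 and -1.14. All groups overlapped with their neighbours, and GFP+RFP+ cells had the highest mean, -1.51 ± 0.34 (SD, n = 4). The pooled SD within groups was 0.35, against a median of 1.665 over the genes tested, and 2.41% of genes had a smaller one. Itga6 was the 1 tested gene of the 9 with a higher mean in Treg, by 0.34 ± 0.33 (SE) without and 0.89 ± 0.35 (SE) with the IL-2 reporter. Its further probe, whose accession in the files is a transcript of another database, had an r of -0.21 with the first over 19 arrays, was detected on 9 of them, and gave -0.52 ± 1.6 (SE) and -1.21 ± 1.7 (SE), so the direction depended on the probe. With the first probe it was positive under the 75th percentile over all probes, median centring, quantile normalization and the deposited table, at 0.74 to 1.93.

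Itga4, the alpha chain of VLA-4, was detected on all 19 arrays, with conventional means of -2.42 ± 0.66 (SD, n = 5) without and -2.28 ± 0.87 (n = 5) with the green signal. Its Treg means were -3.32 ± 2.35 (n = 5) and -3.8 ± 1.46 (n = 4), and all groups overlapped. The Treg differences were -0.9 ± 0.92 (SE) and -1.52 ± 0.98 (SE) without and with the IL-2 reporter. Itga4 was measured on every Treg array, including the 6 on which its partner chain Itgb1 was not detected. A further Itga4 probe was detected on 8 arrays and had an r of 0.18 with the first.

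Itgal, the alpha chain of LFA-1, was detected on 18 arrays and varied within every group. Levels ran from -3.42 to -0.63 in GFP-RFP-, from -7.34 to 0.12 in GFP+RFP-, from -8.27 to 1.2 in GFP-RFP+ and from -8.37 to -3.27 in GFP+RFP+ cells, so all 4 groups overlapped. Its Treg differences were -1.68 ± 1.72 (SE) and -2.27 ± 1.82 (SE). A pair of Itgal probes from neighbouring positions had an r of 0.94 over the arrays and the same detection call on 14 of 19. The further probe of this pair gave Treg differences of -4.12 ± 2.4 (SE) and -3.61 ± 2.55 (SE), over 1.5 times those of the first. The remaining Itgal probe had an r of 0.29 and 0.23 with these probes and the same call on 5 and 8 of 19 arrays.

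Itgav was detected on 12 arrays, 6 of 10 RFP- and 6 of 9 RFP+. Its range was -10.38 to -0.24, and the Treg differences were -0.91 ± 2.13 (SE) and -1.37 ± 2.26 (SE). A pair of Itgav probes had an r of -0.16 and the same detection call on 12 of 19 arrays, so the probes did not rank the arrays alike. Itgae, the chain of epithelial-resident T cells, was detected on GFP-RFP- replicate 1 at -8.26, GFP+RFP- replicate 3 at -6.6 and GFP+RFP+ replicate 1 at -6.62, and lay at background on the other 16 arrays.

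**Figure D2:**
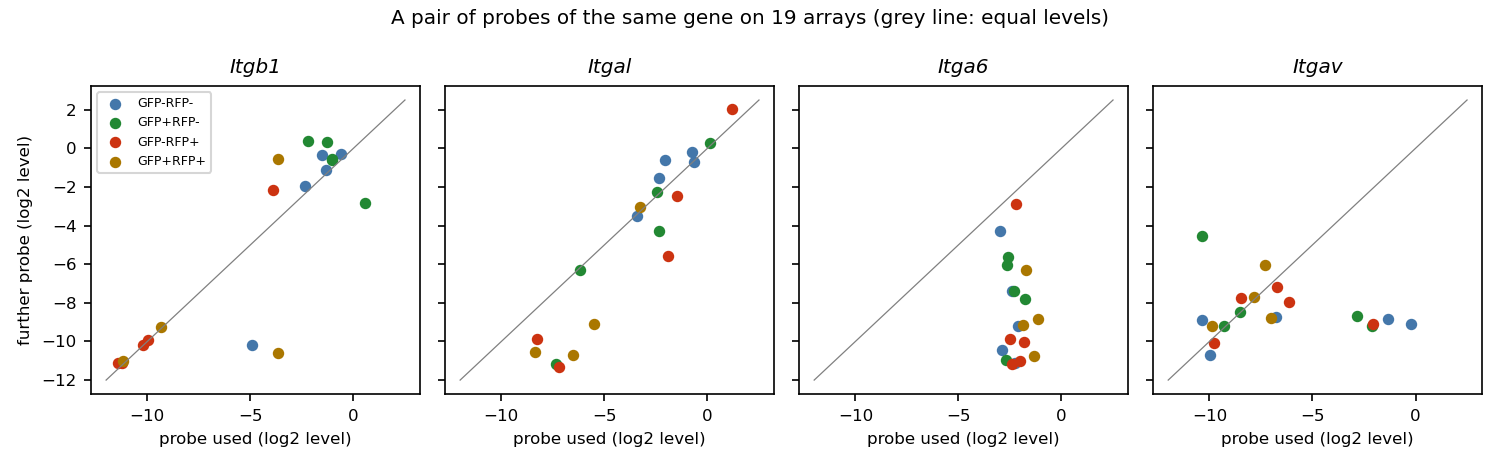
Levels of a pair of probes for Itgb1, Itgal, Itga6 and Itgav on the 19 arrays, with the probe used on the horizontal axis and a further probe on the vertical axis (log2 signal minus the array's 75th percentile), coloured by group. Points of Itgb1 (r = 0.86) and Itgal (r = 0.94) follow the grey line of equal levels, whereas those of Itga6 (r = -0.21) and Itgav (r = -0.16) do not.

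Icam2, a ligand of LFA-1 carried by resting lymphocytes and endothelium, was detected on all 5 GFP-RFP- arrays. There its levels were -1.68, -0.07, -1.2, -2.23 and -2.7. In GFP+RFP- cells they were -1.6, -10.84, -3.21, -11.17 and -2.57, with 3 of 5 detected. In GFP-RFP+ cells they were -9.91, -9.48, -11.06, -11.26 and -0.75, and in GFP+RFP+ cells -3.71, -1.25, -9.04 and -9.74. Outside GFP-RFP- cells, Icam2 was thus either bright or at background from one array to the next. The only detected GFP-RFP+ array, replicate 5, was brighter than 4 of the 5 GFP-RFP- arrays. The Treg difference was -6.92 ± 2.3 (SE) without the IL-2 reporter and -0.06 ± 2.44 (SE) with it, where it had no settled direction (-1.62 to 1.46 over the alternatives).

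Pecam1 was detected on all 10 RFP- arrays and on 1 of 9 RFP+ arrays. Levels in GFP-RFP- cells were 0.93, 0.73, -0.9, -2.41 and -3.05, and in GFP+RFP- cells -0.91, -3.3, -0.54, 0.43 and -2.62. In GFP-RFP+ cells they were -9.7, -3.24, -11.03, -11.22 and -9.98, and in GFP+RFP+ cells -8.83, -10.07, -9.65 and -10.99. Replicate 2 of GFP-RFP+ was the only detected Treg array, and it lay just below the dimmest GFP-RFP- array, so the groups did not overlap in either Treg comparison. The difference was -8.09 ± 1.3 (SE) without and -8.49 ± 1.38 (SE) with the IL-2 reporter. Because no GFP+RFP+ array was well above background, the second depends on how dim signals are treated. Under the scaling used here, the mean of these GFP+RFP+ arrays was 161-fold lower than that of the GFP+RFP- arrays. For each dim array the 161-fold value took the higher of its own signal and the lowest signal well above background. It allows for dim signals and not for sample-to-sample spread. The limma interval of the second difference, -11.4 to -5.59 on the log2 scale, includes differences smaller than 161-fold. Over the alternatives the difference ran from -8.98 to -4.95 on the log2 scale, so the 161-fold value describes these arrays under this scaling only. The 2 Pecam1 spots gave the same call on 19 of 19 arrays, and on the 11 detected arrays the brighter exceeded the dimmer by 1.07 times at the median and 1.23 times at most. Detected spots began at 363.6 intensity units and the brightest undetected spot had 10.82.

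The pattern of Pecam1, detected on all 10 RFP- arrays and on no more than 1 of 9 RFP+ arrays, was shared by 18 of the 20620 genes tested (0.0873%), Pecam1 included. This pattern was written from the values of Pecam1 itself, so the share is a description. Among 11803 other genes with a usual symbol, the levels most like those of Pecam1 over the 19 arrays were Timm9 (r = 0.911), Jmjd6 (r = 0.908) and Slc30a9 (r = 0.858). Timm9 was detected on 10 RFP- and 0 RFP+ arrays, Jmjd6 on 10 and 7, and Slc30a9 on 9 and 1, so the last 2 lack the pattern above. The levels most like those of Itgb1 were Surf2 (r = 0.93), Tmem50a (r = 0.904) and Spop (r = 0.899). These were detected on 10 RFP- arrays each and on 5, 2 and 3 RFP+ arrays. These correlations describe arrays that share groups and quality.

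In GFP-RFP+ against GFP-RFP- cells, 8 of the 9 tested adhesion genes had a lower mean and 1 a higher one, beside 57.1% of all genes with a lower mean. The median difference was -3.52 against -0.29 over all genes. The directions of Itga4 and Itgav turned under the 75th percentile over all probes, quantile normalization and the deposited table, to 0.41, 0.85 and 0.65 for Itga4 and 0.4, 0.14 and 0.51 for Itgav. In limma's fit at a Benjamini-Hochberg adjusted p under 0.05, 2 of the 9 (Itgb1 and Pecam1) were called, beside 1.70% of all genes (1.23% lower and 0.47% higher). The choice of genes had used this comparison, so the calls restate it. The split of called genes depended on the scaling: 27.6% of those called were higher here, and 74.5% to 87.1% under median centring, quantile normalization, the deposited table, normexp or a 75th percentile over all probes. The last of these moved the median of all genes from -0.29 to 1.02. The groups did not overlap for 1 gene, Pecam1, beside 2.58% of all genes that were lower and 4.09% that were higher without overlap. In GFP+RFP+ against GFP+RFP- cells, 8 were lower and 1 higher, beside 44.1% of all genes with a lower mean, and the median was -1.79 against 0.22 over all genes. There 1 of the 9, Pecam1, was called, beside 0.204% of all genes (0.116% lower and 0.0873% higher), and Itgb1 and Pecam1 did not overlap, beside 1.45% lower and 6.36% higher. This call restates the choice of genes too. Of those called there 42.9% were higher, against 0% under median centring and 94.2% under normexp. The call of Itgb1 without the IL-2 reporter was lost when any 1 of GFP-RFP- replicates 1, 2, 3 and 5 or GFP-RFP+ replicates 1, 2 and 5 was left out. The call of Pecam1 with the IL-2 reporter was lost without GFP+RFP- replicate 1 and without replicate 3 or 4 of GFP+RFP+. Without the IL-2 reporter, Itgb2 and Icam2 differed by -5.21 and -6.92 and were not called (limma adjusted p = 0.106 and 0.108).

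**Figure D3:**
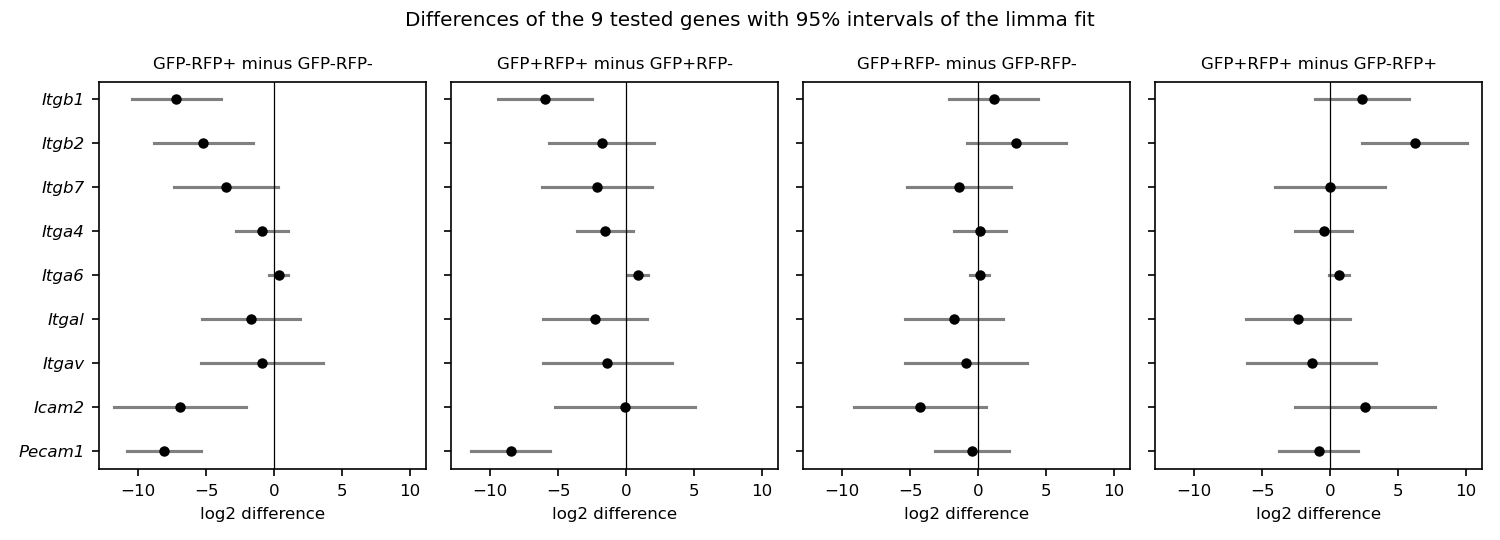
Difference in level (horizontal axis, log2) of the 9 tested genes in the 2 Treg comparisons and the 2 IL-2 reporter comparisons, as points with 95% intervals from limma. The intervals of Pecam1 and Itgb1 lie below 0 in both Treg comparisons, which chose these genes, and that of Itgb2 lies above 0 for the IL-2 reporter in Treg, where it did not pass adjustment over all genes.

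The share of probes detected on an array moved with several of these levels. Over the 19 arrays it had an r of 0.75 with Itgb1, 0.55 with Pecam1, 0.46 with Icam2 and -0.17 with Itga6. With that share as a covariate, the Itgb1 differences were -3.99 ± 1.8 (SE) without and -4.62 ± 1.5 (SE) with the IL-2 reporter, and those of Pecam1 were -8.6 ± 1.8 (SE) and -8.71 ± 1.5 (SE). With the 3 arrays under 30% detected left out, they were -6.29 ± 1.83 and -5.18 ± 1.83 (SE) for Itgb1 and -7.14 ± 1.54 and -8.84 ± 1.54 (SE) for Pecam1. All 3 were Treg arrays: GFP-RFP+ replicates 1 (22.01%) and 4 (24.58%) and GFP+RFP+ replicate 1 (26.08%). The share was lower on average in both Treg groups, so the r values and the covariate fit mix it with the groups. Neither gene was called without the IL-2 reporter under the covariate or without those arrays, and with the covariate neither was called with it.

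**Figure D4:**
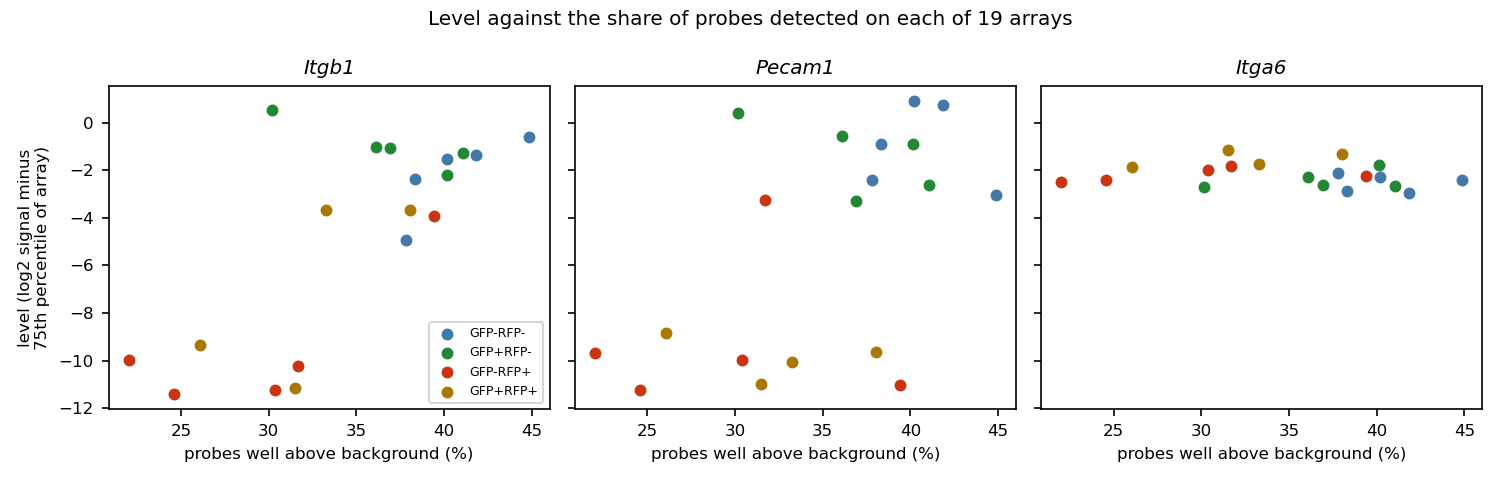
Level of Itgb1, Pecam1 and Itga6 (vertical axis, log2 signal minus the array's 75th percentile) against the percent of all probes well above background on each of the 19 arrays, coloured by group. Over the arrays the share has an r of 0.75 with Itgb1, 0.55 with Pecam1 and -0.17 with Itga6.

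The arrays lay on 3 slides that each held all or most groups. Within slides 1, 2 and 3, Pecam1 differed by -10.38, -2.39 and -7.55 without the IL-2 reporter and by -8.72, -8.22 and -8.37 with it. For Itgb1 the values were -4.99, -7.07 and -10.71 without and -4.91, -3.42 and -9.91 with the IL-2 reporter. Both genes, chosen for lower values in Treg on these same arrays, were lower there on every slide. The smallest Pecam1 difference came from slide 2, which held GFP-RFP+ replicate 2. For Itgb2 without the IL-2 reporter the values were 1.63, -10.71 and -8.17, so its direction was not the same on every slide. Slides 2 and 3 held 1 array of at least 1 group in these comparisons, so their values have no test.

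The IL-2 reporter comparisons asked whether the same genes differed between cells with and without the green signal, and they were tested. For Itgb1 and Pecam1 they share arrays with the comparisons that picked these genes. Among conventional cells, GFP+RFP- against GFP-RFP-, limma called 0 of the 9 genes, beside 0.0097% of all genes, and 0 of the 9 had an unadjusted p under 0.05, beside 5.14% of all genes. No member's groups were apart, beside 0.703% lower and 1.69% higher of all genes. The difference of greatest size was that of Icam2, at -4.3 (95% interval -9.16 to 0.56, limma adjusted p = 1), followed by Itgb2 at 2.83 (-0.8 to 6.47, adjusted p = 1). Pecam1 differed by -0.45 (-3.19 to 2.29) and Itgb1 by 1.16 (-2.11 to 4.43). The median of the 9 was -0.45 against -0.02 over all genes. Itga6, with the narrowest interval of the 9, differed by 0.13 (-0.57 to 0.82).

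Among Treg, GFP+RFP+ against GFP-RFP+, limma called 0 of the 9 genes, beside 0.00485% of all genes, and 1 of the 9 had an unadjusted p under 0.05, beside 5.40% of all genes. No member's groups were apart there, beside 0.204% lower and 0.815% higher. The gene with the small p was Itgb2, higher by 6.25 ± 1.83 (SE; 95% interval 2.39 to 10.1) in GFP+RFP+ cells, with an unadjusted p of 0.00328 and a limma adjusted p of 0.714. It was detected on 4 of 4 GFP+RFP+ arrays and 3 of 5 GFP-RFP+ arrays, and replicate 3 of GFP-RFP+, at -1.33, lay above 2 GFP+RFP+ arrays. Within slides 1, 2 and 3 the Itgb2 difference was 1.62, 9.77 and 9.8. Its partner Itgal differed by -2.38 (-6.22 to 1.46), Itgb1 by 2.38 (-1.09 to 5.85), Itga6 by 0.67 (-0.06 to 1.41) and Pecam1 by -0.85 (-3.76 to 2.06). Icam2, the ligand of LFA-1, differed by 2.56 (-2.6 to 7.72).

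The interaction tested whether the Treg difference depended on the IL-2 reporter. It called 0 of the 9 genes, beside 0.0097% of all genes, and 0 of the 9 had an unadjusted p under 0.05, beside 4.92%. The largest estimate was that of Icam2, 6.86 ± 3.36 (SE; limma adjusted p = 0.999). For Pecam1 the interaction was -0.4 (95% interval -4.4 to 3.59) and for Itgb1 1.21 (-3.55 to 5.98).

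Of the 19 other integrin chains listed, 6 passed the filter and none was called in any of the 4 comparisons or the interaction by limma. Their median Treg differences were 0.83 without and 1.04 with the IL-2 reporter, against -0.29 and 0.22 over all genes. Itgam, the alpha chain of the myeloid integrin Mac-1, was detected on all 19 arrays with conventional means of 2.69 ± 0.14 (SD, n = 5) and 2.98 ± 0.4 (n = 5) without and with the green signal, and Treg means of 3.86 ± 0.63 (n = 5) and 4.1 ± 0.5 (n = 4). Its Treg difference was 1.17 ± 0.37 (SE; limma adjusted p = 0.0944) and 1.12 ± 0.39 (SE; adjusted p = 0.168). Itga1, a collagen-receptor chain, had differences of 1.46 ± 0.6 (SE) and 1.69 ± 0.63 (SE), with adjusted p of 0.167 and 0.191. Itga9, Itga11, Itgax and Itgbl1 were never detected.

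Of the 22 ligands and adhesion partners, 11 were tested and 0 were called in any comparison. In GFP-RFP+ against GFP-RFP- cells 10 had a lower mean, beside 57.1% of all genes, with a median of -1.88 against -0.29. Of all genes, 1.7% were called there. Cd99, a partner of Pecam1 in leukocyte passage across endothelium, was lower by -4.23 ± 1.29 (SE; limma adjusted p = 0.0876), and Cd44, the hyaluronan receptor, by -1.88 ± 0.86 (SE; adjusted p = 0.205). With the IL-2 reporter 8 of 11 had a lower mean, beside 44.1% of all genes, with a median of -2.12 against 0.22. Of all genes, 0.204% were called there. Spn (CD43) had the smallest p of the list, at -5.49 ± 1.93 (SE; limma adjusted p = 0.17).

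Of the 21 genes of inside-out activation, the steps by which receptor signals switch integrins on, 20 were tested. Without the IL-2 reporter 18 of them had a lower mean in Treg, beside 57.1% of all genes, with a median of -2.38 against -0.29. Limma called 1 of the 20 lower, beside 1.23% of all genes. It was Rasgrp1, an exchange factor upstream of Rap1, at -8.2 ± 1.61 (SE; adjusted p = 0.0225), well above background on 5 of 5 arrays of conventional cells and 0 of 5 of Treg there. With the IL-2 reporter its mean was higher in Treg, at -4.69 ± 3.99 (SD, n = 4) against -7.09 ± 3.67 (SD, n = 5), and the interaction was 10.61 ± 2.35 (SE; unadjusted p = 0.000308, limma adjusted p = 0.465). Dock2 differed by -5.31 ± 1.42 (SE; adjusted p = 0.0606) and Rap1a, the GTPase that recruits talin, by -4.83 ± 1.49 (SE; adjusted p = 0.0903). With the IL-2 reporter 17 had a lower mean, beside 44.1% of all genes, with a median of -1.22 against 0.22. There 0 were called, beside 0.204% of all genes, and Fermt3, the kindlin of blood cells, differed by -6.75 ± 2.45 (SE; adjusted p = 0.179).

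Of the 26 genes of outside-in signalling and cytoskeletal linkage, 24 were tested. In GFP-RFP+ against GFP-RFP- cells 21 had a lower mean, beside 57.1% of all genes, with a median of -2.83 against -0.29. Limma called 1 of them lower, beside 1.23% of all genes. It was Csk, the kinase that restrains Src-family kinases, at -6 ± 1.3 (SE; adjusted p = 0.0333). Pxn, the adaptor paxillin, differed by -4.3 ± 1.35 (SE; adjusted p = 0.0934). With the IL-2 reporter 16 had a lower mean, beside 44.1% of all genes, with a median of -0.44 against 0.22. There 0 were called, beside 0.204% of all genes. In the IL-2 reporter comparisons 0 genes of either signalling list were called, beside 0.0097% of all genes in conventional cells and 0.00485% in Treg. Of 13 broadly expressed genes, 10 also had a lower mean in GFP-RFP+ cells, with a median of -1.18, and 1, Hprt, was called lower. Counts and medians of the gene lists were taken under the scaling used here alone, and the split of called genes depended on the scaling.

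Markers of other cells that carry these molecules were measured beside them. Of 10 endothelial markers, 3 to 6 were detected per array. Tie1, Emcn and Robo4 were never detected, and Cdh5, the defining endothelial cadherin, was detected on 1 of 19 arrays. Others were detected more widely. Vwf and Kdr were each detected on 5, 5, 5 and 4 arrays of GFP-RFP-, GFP+RFP-, GFP-RFP+ and GFP+RFP+ cells, which is every array. In the same order Eng was detected on 5, 5, 3 and 2, Tek on 4, 3, 4 and 2, and Esam on 1, 4, 4 and 3. The summed endothelial signal was 3.69% to 11.6% of the 75th percentile in GFP-RFP-, 5.02% to 10.9% in GFP+RFP-, 4.56% to 13.8% in GFP-RFP+ and 6.6% to 20.5% in GFP+RFP+ cells. Its part in the Pecam1 result was not tested. Of 10 platelet markers 4 to 6 were detected per array, and Pf4 was detected on 2 of 19 arrays. Their sums were 2.63% to 28.9%, 2.89% to 37.1%, 2.65% to 22.6% and 6.55% to 61.2% in the same group order. B cell markers, 3 to 8 of 10 detected per array, summed to 35.3% to 137%, 53.9% to 237%, 18.7% to 145% and 17.4% to 99.4%. In GFP-RFP+ against GFP-RFP- cells, 5 of the 8 tested B cell markers had a lower and 3 a higher mean, beside 57.1% of all genes with a lower mean. Of all genes, 1.23% were called lower there. Cd79b, a B cell receptor chain, was called lower, at -6.34 ± 1.51 (SE; limma adjusted p = 0.0429), and the adaptor Blnk had a higher mean, by 2.11 ± 0.89 (SE; adjusted p = 0.178), as with the IL-2 reporter, by 2.4 ± 0.95 (SE; adjusted p = 0.208). The part of platelet and B cell RNA in the Pecam1 and Itgb1 results was not tested.

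Myeloid and dendritic markers, 4 to 10 of 12 detected per array, summed to 905% to 1290%, 745% to 1260%, 1060% to 2410% and 1420% to 2710% in the same order. This list holds Itgam, whereas Itgax and Clec9a were never detected. Itgam had the highest mean level of the list in every group, at 2.69, 2.98, 3.86 and 4.1 in the same order. The sums therefore mostly follow this gene and do not describe the list as a whole. Of the 9 genes tested, 4 had a lower and 5 a higher mean in Treg without the IL-2 reporter, with a median difference of 0. With it, 1 had a lower and 8 a higher mean, with a median of 0.48. NK and CD8 T cell markers, 2 to 8 of 11 detected per array, summed to 96.3% to 192%, 47.9% to 111%, 34.2% to 346% and 6.95% to 144%. No gene of these 2 lists was called in any comparison, and their part in the levels of Itgb2 and Itgal, which myeloid and NK cells also carry, was not tested.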

How the data were processed

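The deposited scanner files hold linear intensity values for 62976 spots per array, which the authors extracted with Feature Extraction 10.7.3.1 (submitters' processing notes). Per the labels, cDNA from mRNA went through global PCR amplification before Cy3 labelling. A deposited series matrix holds log2 values of unstated normalization. Its column medians were 3.21 to 3.226, and it served as an alternative.

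Control spots (3671 per array) and 3296 outlier spots over all arrays were left out. Repeated spots were averaged. Log2 processed signal minus the 75th percentile over the 6612 probes detected on all 19 arrays was used. Probes detected on at least 4 arrays were kept, gene names came from RefSeq for 27235 probes and from the files for 28446, and the probe with the highest mean represented each gene (20620 genes). One limma model (limma 3.58.1, R 4.3.3, data.table version 1.17.8) covered the 4 groups, and the call threshold was 0.05 after Benjamini-Hochberg adjustment. Intervals are 95%. Replicate arrays correlated at a median r of 0.6422 to 0.7105 within groups, and the number of arrays limits the precision.

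The members and lists were chosen with earlier results of these data known. Named genes are the 10 members, Foxp3 and Il2, at most 3 genes per list and comparison by unadjusted p, and the 3 genes most like Itgb1 and Pecam1; Cdh5, Pf4, Cd4, Cd3g and genes never detected were added as markers. On simulated data of 20590 genes, log2 differences of 4 and 8 had recovery rates of 54% and 82% for the Treg comparison without the IL-2 reporter. For the IL-2 reporter in Treg the rates were 47% and 83%. False calls numbered 11 and 9 in these comparisons. The simulated noise was normal around each gene's mean, whereas measured levels can fall to background, so the rates do not give the power in these data. Alternatives covered scaling, background correction, filters, probe choice, a common floor, blocks, covariates, array weights and left-out arrays. Plots were drawn in Python 3.11.15 (matplotlib 3.10.9, pandas 2.3.3).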

Additional observations from a re-analysis of the deposited data

Results flagged for a closer look

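In 5 of the 40 gene and group combinations, 1 array stood apart from the others of its group by Dixon's test, where chance alone would give about 1 in 20, or 2 of 40. That rate assumes normal levels and independent combinations. Levels here can fall to background and the 10 genes share arrays, so setting 5 beside 2 is no test. All 5 arrays were the highest of their group. Itgb1 was at -3.9 on GFP-RFP+ replicate 3, with the next array at -9.98. Pecam1 was at -3.24 on GFP-RFP+ replicate 2, with the next at -9.7. Icam2 was at -0.75 on GFP-RFP+ replicate 5, with the next at -9.48. Each of these 3 genes thus had its single detected GFP-RFP+ value on a different replicate. Itgb2 was at 1.98 on GFP+RFP- replicate 4, with the next at 0.83, and Itgae at -6.6 on GFP+RFP- replicate 3, with the next at -10.67.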

How the results depend on the processing

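Itgb1 and Pecam1 were lower in Treg under every alternative that kept them and every left-out array run. The Treg comparisons chose both genes, so this describes the processing and counts as no test. Outside the within-slide values given in the results, the differences were -8.55 to -3.42 and -9.54 to -5.11 (log2) without the IL-2 reporter and -7.76 to -4.33 and -8.98 to -4.95 with it. No adhesion gene was called for the IL-2 reporter or the interaction under any alternative or left-out array run. The scan day block and the further probe were chosen after seeing the data. The cause of the changes below was not tested, apart from fewer genes or arrays where the setting itself removes them.

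Counts of called genes moved as follows. For Treg without the IL-2 reporter (351), they were 4031 with the 75th percentile over all probes, 2208 with median centring, 3521 with quantile normalization, 3643 in the series table, 4749 with normexp, 1010 with array weights, 717 with a common floor, 600 for probes detected on all arrays, 1236 with a slide block, 198 with the replicate block, 87 within slide 1, 27 without arrays under 30% detected and 5 with percent detected as a covariate. For Treg with the IL-2 reporter (42), they were 10, 16, 26, 23, 4888, 1823, 532, 748, 138, 8 and 0 under the first 11 of these settings, 8 with the covariate, 108 without a filter, 74 with only the groups compared and 12 with a scan day block. For the IL-2 reporter in Treg (1), they were 11 with the 75th percentile over all probes, 14 with a floor, 8 with normexp, 9 without arrays under 30% detected, 6 with the mean of probes, 5 with median centring, 3 with only the groups compared, the covariate or the scan day block, 2 with quantile normalization, the series table, the slide block or probes detected on all arrays, and 0 within slide 1. For conventional cells (2), they were 9 with array weights, 5 with a floor or normexp, 1 with the covariate, the scan day block or the slide block, and 0 for probes detected on all arrays and within slide 1 or 2. The interaction (2) gave 4 without arrays under 30% detected and 0 for probes detected on all arrays and within slide 1.

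Adhesion genes called without the IL-2 reporter (2, Itgb1 and Pecam1) were 4 in the series table (with Icam2 and Itga6), 2 with quantile normalization (Itga6 and Pecam1, so Itgb1 was lost), 1 (Pecam1) with the mean of probes, the further probe, normexp or slide 1, and 0 with the covariate, without arrays under 30% detected or, with 3 tested, for probes detected on all arrays. With it (1, Pecam1), they were 3 with normexp (with Itga6 and Itgb1), 2 with a floor (with Itgb1), 1 for probes detected on all arrays (Itga6, with 3 tested) and 0 with the covariate, the replicate block, the scan day block or slide 1. Of 20620 genes, 3643 were called in the series table and 3521 with quantile normalization without the IL-2 reporter. With it, normexp called 4888 and the floor 532 of them, and 748 of 5799 were called for probes detected on all arrays. These comparisons chose members, so the counts of adhesion genes are no test. The replicate block is not a pairing known from the labels, and same-numbered arrays did not deviate together (r from -0.074 to 0.094 over 27 pairs).

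In the IL-2 reporter comparisons, directions turned for 5 genes, leaving aside single-slide values without a test. Of the other genes, 3 turned in such untested values within slide 3. Icam2 was 0.13 in conventional cells and -3.74 in Treg, Itgal 1.22 in Treg and Itgb1 -0.65 in conventional cells. Itga4 in conventional cells was -0.76 with the mean of probes, -1.66 with the further probe and -0.02 with the scan day block. Itga6 there was -0.12 within slide 2, Itgb7 there 1.09 within slide 1, and Itgav there 0.17, 1.24, 0.63 and 2.11 with the mean of probes, the further probe, the covariate and slide 1. For the IL-2 reporter in Treg, Itgav was 0.47 with the further probe, Pecam1 0.92 within slide 1, and Itgb7 -0.44, -0.42, -0.48, -0.42, -1.54, -0.17, -0.27, -0.16, -2.54 and -0.3 with the 75th percentile over all probes, median centring, quantile normalization, the series table, array weights, a floor, the covariate, the scan day block, slide 1 and without arrays under 30% detected. In the Treg comparisons, outside single slides, Itgav ran from -2.07 to 3.59 (other sign in 7 of 35 settings) and Itga4 from -1.6 to 0.85 (3 of 36) without the IL-2 reporter, and Icam2 from -1.62 to 1.46 (11 of 34) and Itgav from -2.3 to 0.53 (2 of 35) with it. Itga6 turned in 2 of 36 in both. Interactions turned for Pecam1 (7 of 33), Itga6 (6 of 35), Itgav (6 of 34), Itgb1 and Itgal (4 of 34 each), Itgb7 (3 of 34) and Itga4 (1 of 35).

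With each array left out in turn, called genes ran from 85 (without GFP-RFP- replicate 1) to 1165 (without GFP-RFP+ replicate 4) without the IL-2 reporter, and from 2 (without GFP+RFP+ replicate 4) to 300 (without GFP+RFP- replicate 4) with it. They ran from 1 to 20 for the IL-2 reporter in Treg, from 1 to 12 in conventional cells and from 2 to 13 for the interaction. Adhesion genes called were 1 to 3 without the IL-2 reporter, where Itgb1 was lost without any 1 of GFP-RFP- replicates 1, 2, 3 and 5 and GFP-RFP+ replicates 1, 2 and 5, and 0 to 1 with it, where Pecam1 was lost without either GFP+RFP- replicate 1, or replicate 3 or 4 of GFP+RFP+. For the IL-2 reporter in Treg, Itga4 ran from -1.35 to 0.22, Itgb7 from -1.82 to 1.1 and Pecam1 from -1.4 to 0.6. In conventional cells Itga4 ran from -0.08 to 0.41, Itga6 from -0.03 to 0.23, Itgav from -2.06 to 0.48, Itgb7 from -2.22 to 0.12 and Pecam1 from -0.97 to 0.03.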
